A study of Mus musculus with 12 samples.

Results

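The regions described are p53 peaks that lay deep inside protein-coding genes of wild-type mouse back skin. A peak was a member when its midpoint lay inside a protein-coding gene of the mouse RefSeq annotation (GRCm38.p6, the coordinates of mm10) and more than 5 kb from every start or end of a protein-coding gene. The rule used position alone. It kept 1005 of the 2909 peaks in the wild-type (WT) p53 list, out of 9474 peaks in the 3 lists of the series. Of the other WT p53 peaks, 502 lay within 5 kb of a protein-coding start or end (near gene ends), 1397 lay between genes and 5 on sequences not placed on a chromosome.

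The series used chromatin immunoprecipitation followed by sequencing, in which an antibody recovers the DNA that a protein or histone mark sits on. Back skin came from mice 8 to 10 weeks old whose labels all name ionizing radiation at 5 Gy. The labels give 6 groups of 2 samples, at times written T0 and 6 h. The p53 antibody was used on WT and K17KO skin at each time, and an antibody to histone H3 trimethylated on lysine 4 (H3K4me3, found at active gene starts) on WT skin alone. The deposited peak lists are 3, for WT p53, K17KO p53 and H3K4me3, and none names a library, replicate or control. The times cannot be told apart within a list, and no value has a replicate error. K17KO is the genotype as the labels spell it. The WT p53 list names only its antibody, so its genotype was inferred from the K17KO list being named apart. Whole back skin holds many cell types, and a peak list does not say in which of them p53 was bound.

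p53 is a transcription factor that is stabilised after DNA damage and binds DNA as a tetramer. Its response element is a pair of short half-sites, each built around a CWWG core, where W stands for A or T, and CATG is the commonest form of that core. Response elements occur at gene starts and also within introns and at distant enhancers, from which p53 can activate genes that arrest the cell cycle, repair DNA or start apoptosis.

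Letters were available for the stretches of 4 deep peaks that lie just before a start listed by RefSeq, and for a microRNA hairpin that lies wholly inside another. These are shown because part of their own DNA can be read for the p53 core. Only bases before the start were used, in stretches of at least 40 bases, and each stretch covers only part of its peak. All are written 5′ to 3′ along the strand of the named gene, in lower case. In the 4 stretches, capitals mark CATG and any match to the p53 half-site consensus; in the hairpin, which is written as RNA, they mark CAUG. Both motifs read alike on either strand, and a half-site can hold a CATG. The stretch of the Pcnt peak before 1700094J05Rik is chr10:76388864-76389014 on the plus strand, that of the Psma6 peak before an inner start of the same gene is chr12:55398575-55398702 on the plus strand, that of the Slco1a5 peak before an inner start of that gene is chr6:142278875-142278993 on the minus strand, and that of the Pard3 peak before Gm9909 is chr8:127454760-127454947 on the minus strand. The hairpin of Mir6419, within the Nebl peak, is chr2:17563514-17563626 on the plus strand.
Pcnt peak: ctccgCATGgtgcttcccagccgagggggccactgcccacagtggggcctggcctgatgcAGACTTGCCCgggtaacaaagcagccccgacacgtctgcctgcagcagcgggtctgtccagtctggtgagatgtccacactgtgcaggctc
Psma6 peak: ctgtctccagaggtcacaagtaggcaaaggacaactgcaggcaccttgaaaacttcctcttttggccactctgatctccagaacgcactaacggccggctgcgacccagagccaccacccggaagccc
Slco1a5 peak: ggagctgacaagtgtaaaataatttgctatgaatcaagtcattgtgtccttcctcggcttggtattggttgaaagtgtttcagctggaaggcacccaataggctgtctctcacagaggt
Pard3 peak: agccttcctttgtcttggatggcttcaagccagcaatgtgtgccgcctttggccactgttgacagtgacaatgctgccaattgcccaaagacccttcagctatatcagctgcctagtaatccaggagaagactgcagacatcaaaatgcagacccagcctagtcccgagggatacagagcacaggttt
Nebl peak, Mir6419 hairpin: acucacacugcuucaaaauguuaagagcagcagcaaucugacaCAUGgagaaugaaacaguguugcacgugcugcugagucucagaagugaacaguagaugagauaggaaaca

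The Pcnt stretch of 151 bases held 1 CATG and 1 half-site match that did not overlap it. The peak had 8 fragments over a background of 0.906, a deposited fold of 4.72. Fold here is the deposited ratio in which the peak caller adds 1 to the fragments and 1 to the background before dividing. The Psma6, Slco1a5 and Pard3 stretches, of 128, 119 and 188 bases, held neither motif, at folds of 4.26, 3.38 and 4.52. These short matches are common: in the same bases of all 32851 RefSeq start windows, CATG stood in 36.7% and the half-site in 4.06% for the Pcnt stretch. The shares for CATG and the half-site were 34.9% and 3.83% for the Psma6 stretch, 30.03% and 3.08% for the Slco1a5 stretch, and 45.7% and 5.53% for the Pard3 stretch. The hairpin of 113 bases held 1 CAUG, and its peak had 7 fragments and a fold of 4.20. No match in a stretch says only that these letters are not in it, and a match is not a shown binding site.

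Most deep peaks were low. Fold enrichment, the same ratio at each summit, ran from 2.03 to 7.53 with a median of 4.02, and its middle 50% lay between 3.51 and 4.52. The number of fragments behind each peak could be recovered from the deposited fold and p, since each pair fitted a whole number. The median deep peak had 7 fragments over a background of 0.992. Of the 1005 peaks, 52 had 5 fragments, 232 had 6, 309 had 7, 252 had 8, 98 had 9 and 35 had 10. At least 10 fragments were reached by 62 deep peaks (6.17%), against 63 of 502 peaks near gene ends (12.5%) and 115 of 1397 between genes (8.23%). At least 20 were reached by 4 deep peaks, 11 near gene ends and 20 between genes. The background took few values, with 282 deep peaks at 0.906, 250 at 0.992 and 129 at 1.071, so among deep peaks a fold mostly restates a fragment count. Peaks were narrow, with 523 of 1005 (52.0%) at 216 bp, the narrowest width in the list, and the widest at 731 bp. The other classes were narrow too, with 721 of 1397 peaks between genes (51.6%) and 228 of 502 near gene ends (45.4%) at 216 bp.

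**Figure D1:**
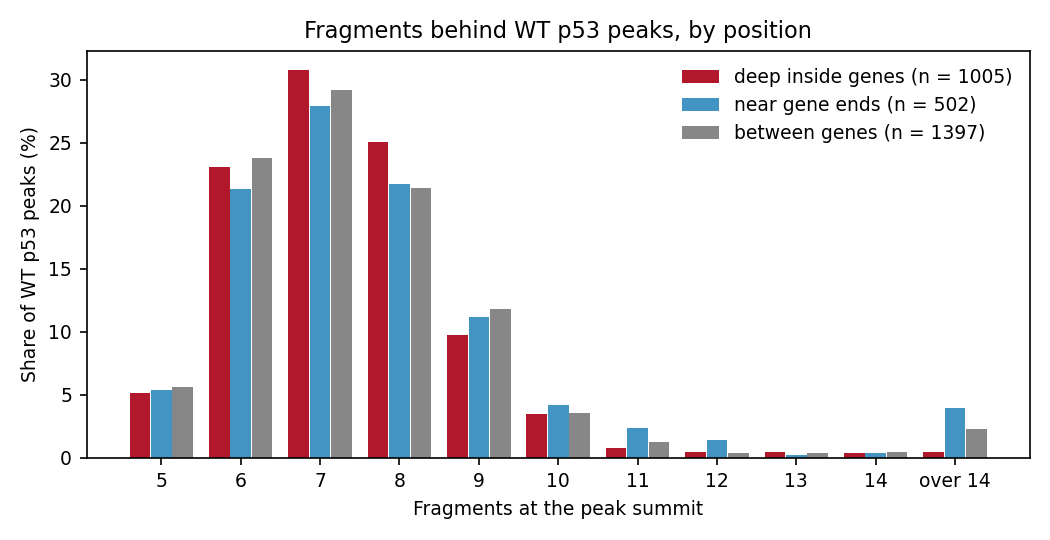
Share of peaks (percent, vertical axis) by the number of fragments at the summit (horizontal axis, with counts over 14 joined) for WT p53 peaks deep inside genes, near gene ends and between genes. All 3 classes centred on 6 to 8 fragments, and the deep class had 6.17% of its peaks at 10 fragments or more.

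The fold of a deep peak was compared with those elsewhere in the same list. Peaks at or above the list's median fold of 4.02 were 544 of 1005 deep inside genes (54.1%, 95% interval 51.0% to 57.2%) and 238 of 502 near gene ends (47.4%, 43.0% to 51.9%), where 53.8% of the whole list reached it. The odds ratio was 1.31 (Fisher's exact test, two-sided, p = 0.0161, adjusted p = 0.0361 over 9 tests). By fragments the order was the other way, with at least 8 in 41.0% of deep peaks and 45.4% near gene ends. The median background was 0.992 for deep peaks and 1.018 near gene ends. The difference of 6.72 percentage points passed the threshold of 0.05 but lost it in 7 of 8 other settings, with the adjusted p reaching 0.921 when deep meant over 20 kb. Between genes 784 of 1397 peaks reached it (56.1%, 53.5% to 58.7%), and the difference from deep peaks did not pass (Fisher's exact test, adjusted p = 0.436). By the same exact test at a deposited q of at most 0.1, 612 deep peaks remained (60.9%), against 277 near gene ends (55.2%, adjusted p = 0.0627), 864 between genes (61.8%, adjusted p = 0.720) and 60.3% of the whole list. At q of at most 0.01 there were 110 deep peaks (10.9%), 62 near gene ends (12.4%) and 187 between genes (13.4%), where the whole list had 12.3%. These intervals and p-values count peaks, so they cover counting error only and not the spread between animals.

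The strongest peak by fold lay in Prlr, the prolactin receptor, at chr15:10215911-10216216. It had 14 fragments over 0.992 (7.53-fold) and lay 38.8 kb from the nearest gene end. Peaks in Kcnq5, a voltage-gated potassium channel subunit, and in Pde1c, a calmodulin-dependent phosphodiesterase, each had 13 fragments over 0.906 (7.35-fold). Khdrbs2, an RNA-binding protein, and Ptprt, a receptor tyrosine phosphatase, each held a peak of 12 fragments (6.82-fold), and the Khdrbs2 peak also lay inside the pseudogene Gm46077. The Rex2 peak had 13 fragments over 1.07 (6.76-fold) and was the nearest of the 10 to a gene end, at 5587 bp. Prkg1, a cGMP-dependent kinase, and Sh3gl2, an endophilin of synaptic vesicle uptake, followed at 6.30-fold with 11 fragments each. Dock5, an activator of the small GTPase Rac, had 12 fragments over 1.07 (6.28-fold), and Ldah, a lipid droplet hydrolase, had 11 over 0.992 (6.02-fold). The host genes of the 10 peaks of highest fold were 87.2 to 1201 kb long.

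Ranked by −log10 p, the order began with Tmem267, a gene for a transmembrane protein. Its 3 peaks lay within 5.47 kb on chromosome 13 and had a −log10 p of 25.1, 17.3 and 13.6. They held 110, 159 and 136 fragments over backgrounds of 33.7, 74.4 and 66.4, so their folds were only 3.20, 2.12 and 2.03. The next highest background at any deep peak was 6.43, in Mroh2a, where 20 fragments gave 2.83-fold. After Tmem267 came Prlr at 12.6 and Kcnq5 and Pde1c at 11.9 each.

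By the rule every peak lay more than 5 kb from a gene end, and the distances beyond that are given as a description. The distance to the nearest end of a protein-coding gene had a median of 32.9 kb, and 383 peaks (38.1%) were beyond 50 kb and 200 (19.9%) beyond 100 kb. The farthest was in Cntnap2, a neurexin-family adhesion protein, at 1099 kb with 9 fragments (5.25-fold). Pcdh15, a protocadherin of the inner ear hair cell, followed at 757 kb (3.51-fold) and Macrod2, which removes ADP-ribose from proteins, at 748 kb (4.02-fold). At the 5 kb limit the members just inside were Wipi1 at 5032 bp (4.52-fold), Zdhhc1 at 5077 bp (4.16-fold) and Vmn2r53 at 5080 bp (4.72-fold). Just outside were peaks in or by Tmem132c at 4996 bp (2.90-fold), Mettl7a3 at 4930 bp (4.38-fold) and Gm38510 at 4917 bp (3.42-fold). For 820 peaks in a gene with a known strand, position was measured from the gene's start after 5 kb was cut from each end. Successive stretches of 20% of what remained held 20.2%, 21.0%, 21.0%, 16.8% and 21.0%, and their intervals overlap.

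Deep peaks were rarely at H3K4me3, and the rule itself keeps them away from gene starts, where this mark is found. H3K4me3 peaks numbered 0.895 per Mb in gene sequence that meets the rule and 2.51 per Mb outside it. A lower overlap than near gene ends therefore follows from the rule and is not read as a trait of p53 peaks. An H3K4me3 peak overlapped 3 of 1005 deep peaks by at least 1 bp (0.299%, 95% interval 0.0616% to 0.870%), against 20 of 502 near gene ends (3.98%, 2.45% to 6.09%), where the whole WT list had 0.963%. The odds ratio was 0.0722 (Fisher's exact test, two-sided, adjusted p = 1.15e-06). Between genes 5 of 1397 peaks overlapped (0.358%, 0.116% to 0.833%), and the difference from deep peaks did not pass (Fisher's exact test, adjusted p = 1). The comparison with gene ends no longer passed among the 110 deep peaks at q of at most 0.01 (exact test, adjusted p = 0.449).

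The 3 overlaps were in Tmem267, Tanc1 and Msi1. In Tmem267 the H3K4me3 peak had 77 fragments over a background of 42.1 (1.81-fold) and the p53 peak under it 136 over 66.4. That H3K4me3 background was below its list's median of 90.7, whereas the p53 background was the second highest of any deep peak. Tanc1, a synaptic scaffold protein, had 27 H3K4me3 fragments over 4.03 (5.57-fold) and 16 p53 fragments over 3.97 (3.42-fold). Msi1, the RNA-binding protein Musashi, had 28 H3K4me3 fragments over 14.96 (1.82-fold) and 10 p53 fragments over 1.29 (4.81-fold). Peaks in Adarb1, an RNA-editing deaminase, and Afm, the blood protein afamin, lay within 1 kb of an H3K4me3 peak without touching it. The nearest H3K4me3 peak was a median of 160 kb from a deep peak, and 218 deep peaks (21.7%) had one within 50 kb.

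The K17KO list was set against the WT list to see whether its p53 peaks lay in the same places. No deep WT peak overlapped a K17KO p53 peak: 0 of 1005, which allows a share of up to 0.299% (3 counts of the total) or 0.366% (upper bound of the exact 95% interval). Near gene ends 5 of 502 did (0.996%, 0.324% to 2.31%), and 0.309% of the whole WT list. The difference between deep peaks and gene ends passed (Fisher's exact test, two-sided, adjusted p = 0.0121), but not in 4 of 11 other settings, among them with ends of noncoding genes counted (adjusted p = 0.187) and with a limit of 20 kb (adjusted p = 0.310). Between genes 4 of 1397 overlapped (0.286%, exact test, adjusted p = 0.217). K17KO peaks were themselves thinner in gene sequence that meets the rule, at 0.353 per Mb against 0.420 outside it. The part of that in the difference from gene ends was not tested, so the difference is not read as a trait of deep peaks.

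**Figure D2:**
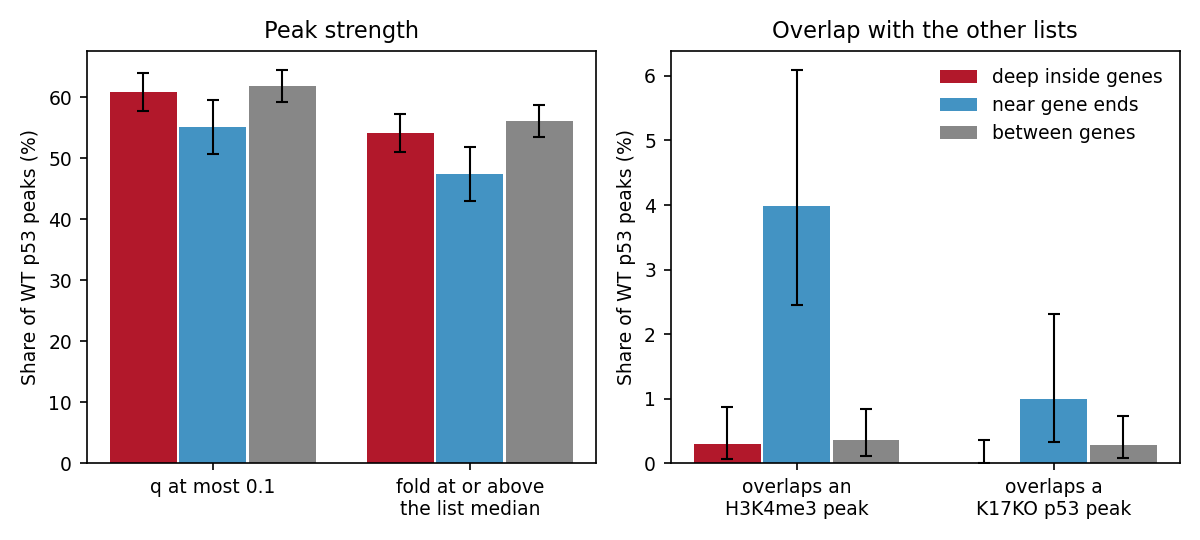
Share of WT p53 peaks (percent, vertical axes) deep inside genes, near gene ends and between genes, with exact 95% binomial intervals, at q of at most 0.1 and at or above the list's median fold (left panel) and overlapping an H3K4me3 or a K17KO p53 peak (right panel). Deep peaks overlapped H3K4me3 in 0.299% of cases, against 3.98% near gene ends, a difference that follows from the rule. Of 1005 deep peaks, 0 overlapped a K17KO peak.

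The nearest K17KO peak lay a median of 656 kb from a deep WT peak, and 51 (5.07%) had one within 50 kb. The closest pair was in Prkca, protein kinase C alpha, at 1333 bp, where the WT peak had 7 fragments (3.50-fold). Mctp1 followed at 1737 bp with 8 fragments, then Tanc1 at 2017 bp, Bcl11b, a transcription factor of skin and T cells, at 3986 bp with 10, and Fam133b at 4928 bp with 6.

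Taken whole, the WT list had a larger share of deep peaks than the K17KO list, though genotype and list cannot be told apart. Deep peaks made up 34.5% of the WT list (1005 of 2909, 32.8% to 36.3%) and 27.4% of the K17KO list (302 of 1101, 24.8% to 30.2%). The difference of 7.12 percentage points had an odds ratio of 1.40 (Fisher's exact test, two-sided, adjusted p = 7.46e-05). That p counts the peaks of 1 list per genotype. It covers counting error only and is not a test of genotype. Deep sequence makes up 31.4% of the annotated span of the chromosomes, a value between those shares. The lists were not called to a common depth: the smallest −log10 q was 0.376 for WT and 1.04 for K17KO. With the WT list limited to q of at most 0.1, close to the K17KO floor, the deep share was 34.9% and the difference of 7.46 points passed (exact test, adjusted p = 0.000141). With the WT list limited to q of at most 0.01 the deep share was 30.6% and the difference did not pass (exact test, adjusted p = 0.571), and with both lists limited it did not pass either (adjusted p = 0.299).

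Deep peaks were nearly missing from chromosome X. It held 3, or 0.0785 per Mb of deep sequence (exact Poisson interval 0.0162 to 0.230), against 1002 on the autosomes, or 1.23 per Mb (1.15 to 1.31). The 3 lay in Gm16405, in Phf8, a histone demethylase, and in Frmpd4, a scaffold protein of synapses, with 7 fragments each. The density on X was low in the other classes and lists too. The other WT peaks gave 0.151 per Mb on X and 1.14 on autosomes, and deep H3K4me3 peaks gave 0.183 on X and 0.930 on autosomes. The K17KO list had 0 deep peaks on X and 0.370 per Mb on autosomes. The labels do not give the sex of the mice, and its part in these densities was not tested. Among autosomes the density ran from 0.871 per Mb on chromosome 6 to 1.72 on chromosome 7, with chromosome 13 next at 1.54.

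**Figure D3:**
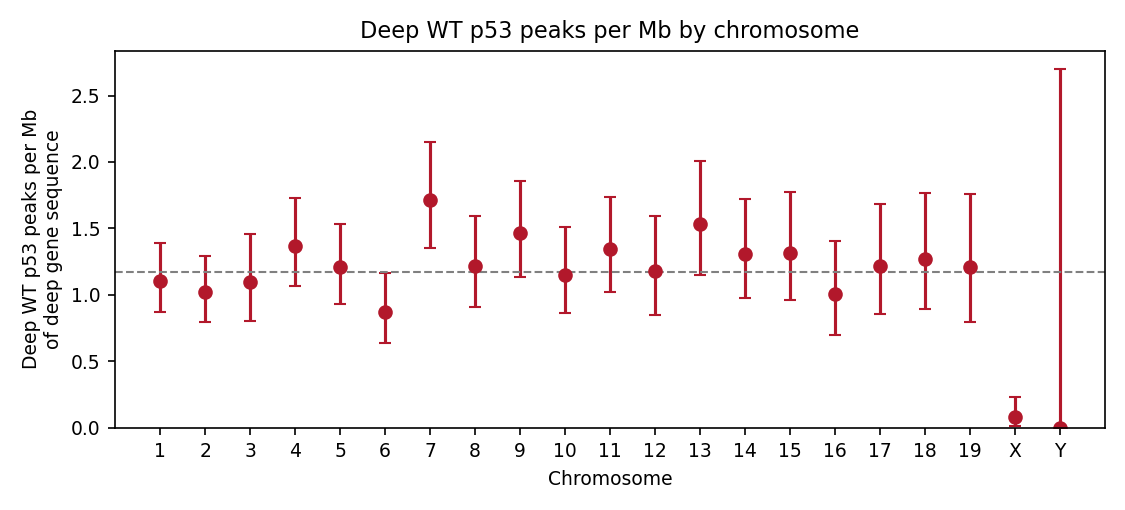
Deep WT p53 peaks per Mb of deep gene sequence (vertical axis) for each chromosome (horizontal axis) with exact 95% Poisson intervals and a dashed line at the value for all deep sequence, 1.18. Chromosome Y, with little deep sequence, had 0 peaks and a wide interval. Chromosome X stands at 0.0785 per Mb, and chromosome 7 is the highest at 1.72 per Mb.

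The deep peaks fell in 881 protein-coding genes, which is 4.03% of the 21887 annotated and 6.31% of the 13961 longer than 10 kb. A single deep peak was held by 775 of them, at least 2 by 106 and at least 3 by 18. Hosts were long: their median length was 135 kb, against 31.1 kb for other genes over 10 kb, and 60.8% of hosts exceeded 100 kb, against 11.1% of all protein-coding genes. A longer gene offers more deep sequence, so peaks were also counted per Mb of it on the autosomes. Genes of 10 to 30 kb gave 1.64 deep WT peaks per Mb (1.31 to 2.04), genes of 30 to 100 kb 1.29, of 100 to 300 kb 1.33, of 300 to 1000 kb 1.15, and those over 1000 kb 0.580 (0.418 to 0.783). Deep K17KO peaks gave 0.541, 0.527, 0.385, 0.250 and 0.0966 per Mb in the same 5 classes. Deep H3K4me3 peaks gave 2.12, 1.30, 0.981, 0.501 and 0.138. All 3 lists were thinnest in the genes over 1000 kb, and the intervals of that class and the shortest one did not overlap in any of them.

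**Figure D4:**
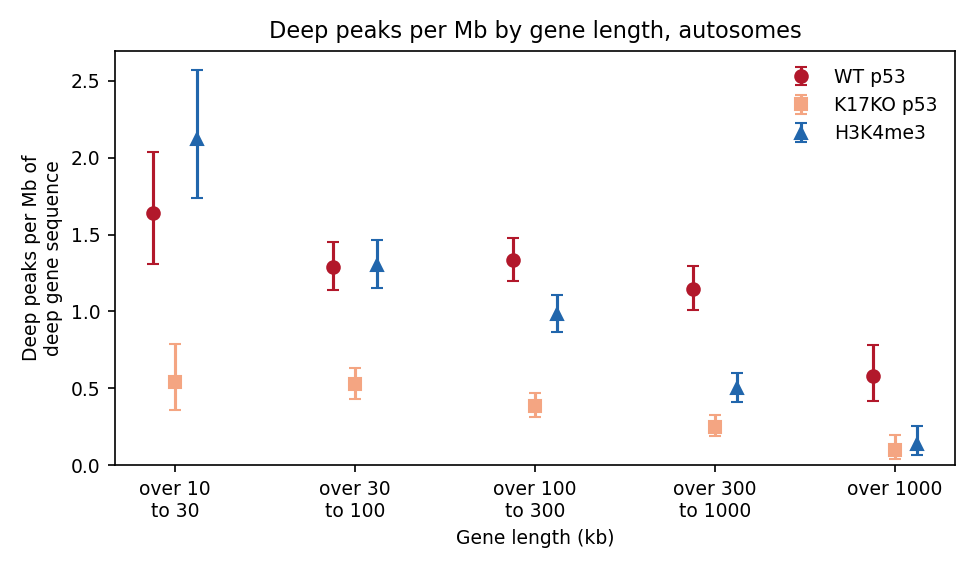
Deep peaks per Mb of deep sequence by gene length class (kb) on the autosomes, with exact 95% Poisson intervals. Circles are WT p53, squares K17KO p53 and triangles H3K4me3. For WT p53 the value is 1.64 per Mb in genes of 10 to 30 kb and 0.580 in genes over 1000 kb.

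Spock1, which encodes the proteoglycan testican-1, held the most deep peaks. Its 5 peaks had 5 to 10 fragments (3.15- to 5.42-fold), and 2 of them lay 516 bp apart. Mast4, a microtubule-associated kinase, held 4 (3.64- to 5.37-fold), as did Ptprg, a receptor tyrosine phosphatase (3.02- to 5.25-fold), Npas3, a transcription factor of the nervous system (3.67- to 4.58-fold), and Nav2, a cytoskeletal protein of growing axons (3.06- to 4.38-fold). These 5 genes were 487 to 824 kb long. Of the 13 genes with 3 deep peaks, Wdfy3, an adaptor of selective autophagy, reached 5.09-fold, Adarb1 and Itgbl1 5.02-fold each, Fyn, a Src-family kinase, 4.83-fold, and Dab1, an adaptor of reelin signalling, 4.72-fold. The 3 Adarb1 peaks lay within 5.15 kb and gave that gene 25.5 peaks per Mb of its deep sequence, whereas the 3 in Dab1 were spread over 500 kb and gave 2.69.

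**Figure D5:**
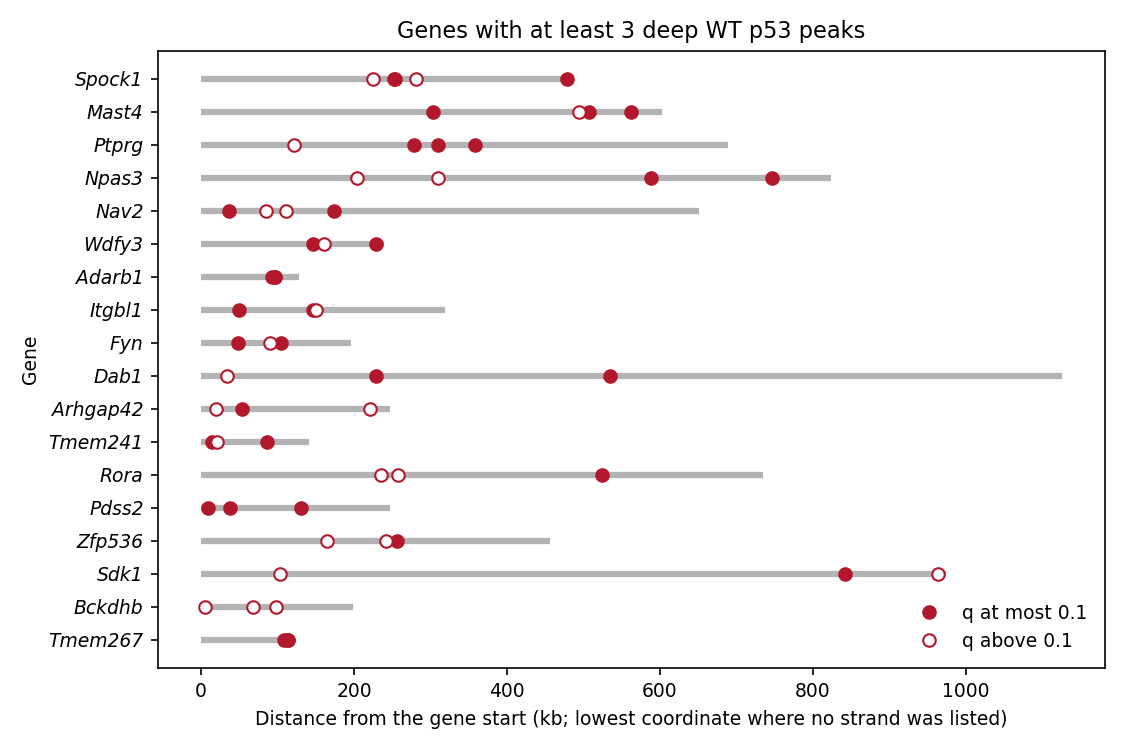
Positions of deep WT p53 peaks in the genes with the most of them, as the distance in kb from the gene start (from the lowest coordinate where the strand is not known). Spock1 has 5 peaks, 2 of them 516 bp apart, and the 3 peaks of Tmem267 lie within 5.47 kb.

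Canonical p53 target genes held 1 deep peak. It was in 1 of 56 targets on the list (1.79%, beside 4.03% of all protein-coding genes), a count too small to set the list apart: Slc19a2, a thiamine transporter, with 7 fragments over 0.906 (4.20-fold). The targets were short, with a median length of 20.04 kb, and gave 0.684 peaks per Mb (0.0173 to 3.81) beside 1.18 (1.10 to 1.25) in all deep sequence. Deep peaks of neighbouring genes lay within 50 kb of 6 targets (10.7%, beside 7.01% of all genes) and within 100 kb of 11 (19.6%, beside 10.6%), with Slc19a2 counted in both. Fdxr, a mitochondrial reductase, lay 32.1 kb from a peak in Tmem104 (3.21-fold). Cd80, a co-stimulatory ligand of T cells, lay 35.2 kb from one in Pla1a, the highest of the 11 at 5.25-fold with 9 fragments. Apaf1, the apoptosome scaffold, lay 35.8 kb from a peak in Anks1b. Cdkn1a, the cell cycle inhibitor p21, lay 36.7 kb from one in Rab44 with 7 fragments over 1.07 (3.86-fold), and Fas, a death receptor, 43.8 kb from one in Acta2. Mdm2, the ubiquitin ligase of p53, lay 73.5 kb from a peak in Nup107 (3.67-fold). Of the peaks named in this paragraph, only those in Slc19a2 and Pla1a reached a q of at most 0.1. Which gene such a peak acts on, if any, cannot be read from a peak list.

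Deep peaks stood in 9 of 32 transcription regulators of the hair follicle (28.1%, beside 4.03% of all protein-coding genes and 6.31% of those over 10 kb). Their median length was 195 kb, beside 17.2 kb for all protein-coding genes, and they gave 14 peaks and 1.85 per Mb (1.01 to 3.10), an interval that includes the 1.18 of all deep sequence. They were led by Sox5 at 4.72-fold, Rora, a nuclear receptor, at 4.38-fold, and Ebf1 and Tcf4 at 4.20-fold each. Rora is also counted below among genes at common fragile sites. Of the same 32 regulators, 12 held a deep H3K4me3 peak and 4 a deep K17KO peak, beside 2.94% and 1.34% of all protein-coding genes. The high share is thus not particular to WT p53. Keratinocyte adhesion and cytoskeleton genes had peaks in 3 of 35: Pkp2 (4.52-fold) and Jup (4.09-fold), both desmosome proteins, and Dst, a linker of hemidesmosomes to keratin filaments (3.06-fold). Extracellular matrix genes had them in 5 of 30, led by Col4a2, a basement membrane collagen (4.39-fold), then Adamtsl1 (4.20-fold), Adamtsl3 (3.82-fold) and Col5a2 (3.67-fold). Wnt, Hedgehog, Bmp, Tgf-beta and Notch genes had them in 3 of 40: Lrp6, a Wnt co-receptor (4.52-fold), Gli2, a Hedgehog transcription factor (3.37-fold), and Axin2, a Wnt inhibitor (3.15-fold). Growth factor receptor and signalling genes had them in 12 of 38, led by Prkg1 (6.30-fold), Alk (4.59-fold), and Ntrk3 and Pik3r1 (4.44-fold each). The intervals of peaks per Mb of these lists also included 1.18. Among the peaks named here, those in Dst, Adamtsl3, Col5a2, Gli2 and Axin2 did not reach a q of at most 0.1.

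DNA damage signalling and repair genes held deep peaks in 3 of 40: Mre11a, a nuclease of break repair (4.20-fold), and Xrcc5 and Rad51b (3.51-fold each). Of the 19 genes of the H3K4 methylation machinery 0 held one, and likewise 0 of 20 adipocyte and endothelial genes. At the 4.03% of all protein-coding genes, lists of this size can hold 0, so nothing is read from these counts. Melanocyte genes had them in 2 of 12, with Oca2 at 4.72-fold and Mitf, the master regulator of melanocytes, holding 2 peaks at 4.20- and 3.38-fold, or 4.20 peaks per Mb for the list (0.865 to 12.3). Immune cell genes had them in 3 of 21, with Arhgap15 and Dock2 at 4.52-fold each and Skap1 at 4.02-fold. Skeletal muscle genes had them in 2 of 18, with Cacna1s at 4.21-fold and Ttn at 3.53-fold. The intervals of peaks per Mb of each of these lists included 1.18. The peaks in Xrcc5, Rad51b and Ttn and the lower one in Mitf did not reach a q of at most 0.1.

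The 3 lists of longest median length are given beside the 6.31% of all genes over 10 kb that held a deep peak. Genes at common fragile sites, chromosome regions that break under replication stress, held deep peaks in 17 of 30 and had a median length of 1116 kb. Their 28 peaks gave 0.846 per Mb (0.562 to 1.22), and among the hosts were Esrrg, Cntnap2 and Ptprg at 5.25-fold each. Cell adhesion and axon guidance genes held them in 17 of 45 at 0.695 per Mb (0.445 to 1.03), led by Negr1 and Cdh12 at 5.25-fold each, Lsamp at 5.02-fold and Cdh4 at 4.72-fold. Neuronal ion channel and synapse genes held them in 12 of 40 at 0.711 per Mb (0.398 to 1.17), led by Kcnq5 at 7.35-fold, Cacna2d1 and Cacna2d3 at 5.52-fold each, and Gabrg3 at 5.25-fold. Beside 1.18 per Mb in all deep sequence (1.10 to 1.25), the interval of the adhesion list lay lower, and those of the fragile site and channel lists overlapped it.

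Host genes were compared with those of the other lists. Of the 881 WT hosts, 54 (6.13%) also held a deep K17KO peak, where 1.34% of all protein-coding genes held one. The 54 are 18.4% of the 293 K17KO hosts. A deep WT peak was held by 4.03% of all genes and by 6.31% of those over 10 kb. Shares of all genes count genes of at most 10 kb too, which cannot hold a deep peak. These 54 genes were long, at a median of 401 kb, against 130 kb for the other WT hosts. A deep H3K4me3 peak was held by 93 WT hosts, which is 10.6% of them and 14.4% of the 644 H3K4me3 hosts, where 2.94% of all genes held one, and their median length was 238 kb.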

How the data were processed

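Bowtie2 2.2.5, SAMtools 1.7, MACS2 2.1.2 and build mm10 are named in the submitters' processing notes. Their roles, the control, the threshold for calling peaks and the libraries behind each list were not stated there. The 3 lists hold 10 columns each, without a header. The authors' fold is a peak's fragments as a ratio to the peak caller's background. The −log10 p and, adjusted within the list, the −log10 q were also deposited per peak, and the deposited score is 10 times the −log10 p without decimals. Fragments were recovered as the whole number for which fold equals fragments plus 1 over background plus 1 and p is the upper Poisson tail, within 0.001; this succeeded for 100.0% of peaks of each list, uniquely for 2684 of the 2909 WT peaks, and the closest number was taken for the rest. These fragments per peak are the depth known here, and library totals are unknown.

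Gene positions and start windows came from RefSeq tables of GRCm38.p6, on which 1671 of 1671 overlapping opposite-strand windows were reverse complements. A gene's first and last base were its ends; exons and introns were not told apart. Densities are peaks per Mb of gene bodies beyond 5 kb of any protein-coding end. Differences in share were tested by Fisher's exact test (two-sided), with Benjamini-Hochberg values over the 9 tests, at 0.05; intervals are exact Clopper-Pearson or Poisson at 95%. Python 3.11.15, SciPy 1.17.1, pandas 2.3.3 and NumPy 2.4.6 were used, and the methods were tested on simulated data. No genome was used here, so the planned motif search over whole peaks was not run.

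The members, the 15 gene lists (477 entries, 1 unmatched) and the tests were chosen with earlier results of these data known. Named were the 10 deep peaks of highest fold, the 5 of highest −log10 p, the 3 farthest from a gene end, the 3 on either side of the limit, up to 10 overlapping another list, up to 10 genes with the most deep peaks, and the 4 members of highest fold, at most, of each gene list. Some items that these rules select are not reported here. The other peaks and genes named were chosen after their values were seen. The alternatives tried were limits of 2, 10 and 20 kb, ends of noncoding genes, stricter q or fold, summits in place of midpoints, and other overlaps.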

Additional observations from a re-analysis of the deposited data

How the results depend on the processing

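A lower H3K4me3 overlap in deep peaks than near gene ends follows from the rule and is not read as a trait of p53 peaks. The overlap was lower under all 11 alternatives, passing in 10 and not at q of at most 0.01 (-6.25 points). Against peaks between genes its sign turned at limits of 10 kb (0.0349 points) and 20 kb (0.0242), with noncoding ends (0.243), at q of at most 0.1 (0.0272) and 0.01 (0.749) and with an overlap of 50% (0.0838), never passing. The K17KO overlap against gene ends lost its call at 20 kb (-0.575 points), with noncoding ends (-0.549), at q of at most 0.01 (-4.84) and in the upper 50% by fold (-1.36). Peaks at or above the median fold, deep against gene ends, lost the call at 2 kb (7.74 points), 10 kb (2.28), 20 kb (1.82), with noncoding ends (3.52), at q of at most 0.1 (2.97) and 0.01 (3.72), and without peaks over a background above 5 fragments (6.17), a setting chosen after seeing the data. Against peaks between genes its sign turned at q of at most 0.01 (2.09). At q of at most 0.1, 88.9% of deep peaks and 85.9% near gene ends reached the median fold. So few peaks fell below it that this setting and the stricter q can hardly show a difference. The larger deep share of WT than of K17KO lost its call at q of at most 0.01 in the WT list (3.21) and in both lists (4.89), the second chosen after seeing the data. The cause of these changes was not tested, though stricter q leaves fewer peaks. Deep peaks numbered 642 at 20 kb, 612 at q of at most 0.1, 110 at 0.01 and 512 in the upper 50%. Under those 4 settings the host genes numbered 546, 564, 105 and 480, and those with at least 3 peaks 11, 6, 1 and 2. Genes with at least 2 numbered 45 at q of at most 0.1, 4 at 0.01 and 33 in the upper 50%. No paired analysis was possible because the lists name no replicate, and for the same reason no replicate could be left out. In the upper 50% the q comparison could not be made, since every peak passes.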

Other observations

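Some deep peaks lay at genes other than their protein-coding host. Of the 1005, 54 (5.37%) lay inside a noncoding gene, 49 of them a long noncoding RNA (4.88%), and 25 (2.49%) lay within 1 kb of an end of a noncoding gene. Of the 969 deep peaks on chromosomes with listed start windows, 15 (1.55%) lay within 1 kb of a listed start, which was a start of the host gene itself in 10. MicroRNA hairpins lay within 5 kb of the midpoint of 4 of these 969 peaks. Besides Mir6419 in Nebl, these were Mir690 at 2672 bp from the peak in Fgf12 (6 fragments), Mir6955 at 3032 bp from that in Gga1 (10 fragments) and Mir1933 at 3652 bp from that in Ugp2 (7 fragments). Such counts were not made for the other WT peaks, so these shares do not set deep peaks apart.

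Deep peaks within 2 kb of each other formed 7 pairs, each inside 1 gene. Besides those of Spock1, Adarb1 and Tmem267, pairs lay in Serpina12, 507 bp apart (7 and 6 fragments), in Kif14, a mitotic kinesin, 1529 bp apart (8 and 7 fragments), and in Gsdme, a pore-forming gasdermin, 1661 bp apart (7 fragments each). Whether such a pair is 1 wide region or 2 sites was not tested.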
